A study of Mus musculus with 2 samples.

Results

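The Meis, Pknox and Pbx genes encode homeodomain transcription factors, and DNase I hypersensitivity was read over 8 of them: Meis1, Meis2, Meis3, Pknox1, Pknox2, Pbx2, Pbx3 and Pbx4. Their rows were found by gene name. They account for 37 of the 55432 transcripts and 8 of the 22605 genes in the deposited table, and the transcript whose coding span touches the most windows stands for its gene. M1 is a mouse myeloid leukemia line of progenitor type, which the cytokine IL-6 drives to differentiate. The untreated group (M1) and the group given IL-6 for 4 to 5 days (M1+IL-6) came from this line, with horse serum in the medium, and each is 1 library. In DHS-seq, nuclei are cut lightly with DNase I and the small fragments freed from open chromatin are sequenced. A value is therefore a measure of open chromatin over a gene body and not of its RNA.

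Proteins of this class carry a homeodomain with an inserted loop (TALE, for extended loop). Meis and Pknox proteins bind DNA as heterodimers with Pbx proteins, and the dimers join Hox proteins to select sites that a Hox protein alone binds poorly. Pairing also governs whether Pbx proteins stay in the nucleus. In early blood cells Meis1 works with Hoxa9, and excess of both causes myeloid leukemia in mice. The study predicted sites for Meis1 and Hoxa9 upstream of c-myb, a gene that keeps progenitors immature and is turned down on differentiation. It reports both as bound there, and its listed ChIP antibodies include Hoxa9 but not Meis1. It also found Meis1 mRNA raised by active Hoxa9 and lowered by Hoxa9 knockdown.

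Every value is a number of reads per window of 700 bp. A read counts 1 in the M1 library and 1.03816 in the IL-6 library, the factor that the deposited values carry, and scaled reads include it. Intervals are 95% intervals of counting error only (exact Poisson for levels, Clopper-Pearson for ratios). With 1 library in each group they describe a pair of libraries, and no p-value is given. Coding spans that do not overlap held 9102320 reads in the M1 library and 8544903 reads in the IL-6 library over 1200277 windows. The libraries differed in how sharply the reads were gathered. Among 4349 windows whose own reads could be recovered, the top 5% held 55.6% of the reads before and 27.5% after IL-6. The part of this difference in the results on IL-6 was not tested. As a check of the label, 8 progenitor markers (Spi1 is listed as Sfpi1) had a median of 21.6 reads per window in untreated cells. Medians were 8.79 for 10 macrophage, 8.74 for 6 T-cell, 8.71 for 5 B-cell, 16.0 for 5 erythroid and 3.24 for 5 mesenchymal markers, and none of these genes was at 0.

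Promoters of Meis1, Meis2 and Pbx4 are printed because their start-codon ends are compared with the rest of their genes in what follows. The promoter table used here, from RefSeq (GRCm38.p6), matched 5 of the 8 genes, the others being Meis3 and Pbx2. Each is the 250 bases before the transcription start, 5′ to 3′ on the strand of the gene, and each matched NCBIM37 exactly once. Capitals mark the box CCAAT, or ATTGG where it lies on the opposite strand.
Meis1: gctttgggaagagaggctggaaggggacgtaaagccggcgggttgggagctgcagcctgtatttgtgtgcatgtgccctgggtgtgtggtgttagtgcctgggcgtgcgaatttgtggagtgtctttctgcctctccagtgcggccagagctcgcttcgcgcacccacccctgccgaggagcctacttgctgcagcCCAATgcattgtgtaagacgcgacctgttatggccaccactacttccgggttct
Meis2: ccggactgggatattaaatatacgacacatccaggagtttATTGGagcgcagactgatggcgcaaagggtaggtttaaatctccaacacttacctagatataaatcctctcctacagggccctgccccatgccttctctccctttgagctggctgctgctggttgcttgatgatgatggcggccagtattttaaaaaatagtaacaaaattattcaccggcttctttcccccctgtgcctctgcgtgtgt
Pbx4: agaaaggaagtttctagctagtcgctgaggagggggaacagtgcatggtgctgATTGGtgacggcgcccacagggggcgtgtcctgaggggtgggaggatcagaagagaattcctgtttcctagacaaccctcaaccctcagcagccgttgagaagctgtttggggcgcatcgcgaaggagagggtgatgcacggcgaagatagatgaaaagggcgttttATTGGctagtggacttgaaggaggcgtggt
The Meis1 promoter lies at chr11:18918973-18919222 on the minus strand, just beyond the last window counted for that gene. The Meis2 promoter, at chr2:115890356-115890605 on the minus strand, lies largely in the window nearest its start codon. It belongs to an inner start at 115890355, downstream of the start codon of the transcript used here (coding span to 115890549). The Pbx4 promoter, at chr8:72356273-72356522 on the plus strand, lies wholly inside the counted windows. It holds CCAAT at 2 places, the Meis1 and Meis2 promoters hold it at 1 place each, and those of Meis3 and Pbx2 hold none. Of 32851 mouse promoters of this length, 33.8% hold CCAAT on either strand. TGACAG, the core that Meis and Pknox proteins bind, and TGATNNAT, the joint site of Pbx and Hox proteins, were matched in 0 of the 5 promoters on both strands. They are held by 15.9% and 7.68% of all promoters. A match or its lack describes these letters only.

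The genes differ widely in length, and so in how precisely they were measured. Meis1 (chr11:18780433-18918961, minus strand) was read over 197 windows, and the long genes Meis2 (chr2:115688800-115891575, minus) and Pbx3 (chr2:34026977-34228660, minus) over 287 and 285. Pknox2 (chr9:36698570-36954899, minus) had 109 windows, Pbx4 (chr8:72356523-72397062, plus) 57 and Pknox1 (chr17:31701718-31744638, plus) 31. Meis3 (chr7:16760729-16771853, plus) had 15, near the median of 16 over all genes, and Pbx2 (chr17:34728211-34734345, plus) only 6. The windows follow the coding span and not the whole gene. The outermost transcription start in GENCODE was inside them for 1 of the 8 genes, Pbx4. Starts of shorter transcripts were also inside for Meis2 (14 of 18), Pbx3 (8 of 9), Pbx2 (3 of 4) and Meis1 (2 of 6). None was inside for Meis3, Pknox1 or Pknox2, whose outermost starts lay 72 bp, 18783 bp and 178299 bp outside.

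The leukemia partner Meis1 had a low mean signal over its span in both libraries. In untreated cells it held 977 reads, 4.96 per window (4.65 to 5.28), the 31.3 percentile of all genes. In IL-6-treated cells it held 933 reads, a scaled 4.92 per window (4.61 to 5.24), the 25.7 percentile. The all-gene medians were 7.75 and 8.14, so Meis1 stood below the middle of the genes in either state. Gm16140 and Gm16141, annotated on the opposite strand, lie within its span, and DNase I reads cannot be assigned to a strand. Meis2, which acts in neural, heart and limb development, held 995 reads or 3.47 per window (3.25 to 3.69) in untreated cells. After IL-6 it held 1371 reads, 4.96 per window (4.70 to 5.23). It was the lowest of the 8 genes in untreated cells and level with Meis1 after IL-6, where their intervals overlapped. Meis3, known from the hindbrain, held 122 and 128 reads, or 8.13 per window (6.75 to 9.71) and 8.86 (7.39 to 10.5). It was the only Meis gene above the all-gene medians.

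Pknox1 (also called Prep1) and Pknox2 (Prep2) are the other partners of Pbx proteins. Pknox1, which is needed for normal blood formation, held 314 reads or 10.1 per window (9.04 to 11.3) in untreated cells. After IL-6 it held 353 reads or 11.8 per window (10.6 to 13.1). Pknox2 held 925 reads or 8.49 per window (7.95 to 9.05) and then 1333 reads or 12.7 (12.0 to 13.4). Both lay above the all-gene medians in each library, with Pknox2 moving from the 54.1 to the 76.1 percentile and Pknox1 from 62.1 to 72.4.

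Among the Pbx genes the levels were spread most. Pbx2, a widely expressed member, held 44 and 38 reads, 7.33 per window (5.33 to 9.84) and 6.58 (4.65 to 9.02). Pbx3, which like Meis1 is linked to Hoxa9-driven leukemia, held 1160 and 1228 reads, 4.07 per window (3.84 to 4.31) and 4.47 (4.23 to 4.73). Pbx4, known mainly from the testis, held 1063 and 674 reads, 18.6 per window (17.5 to 19.8) and 12.3 (11.4 to 13.2). Pbx4 was thus the highest of the 8 genes in untreated cells, at the 82.9 percentile of all genes, and at the 74.4 percentile after IL-6.

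**Figure D1:**
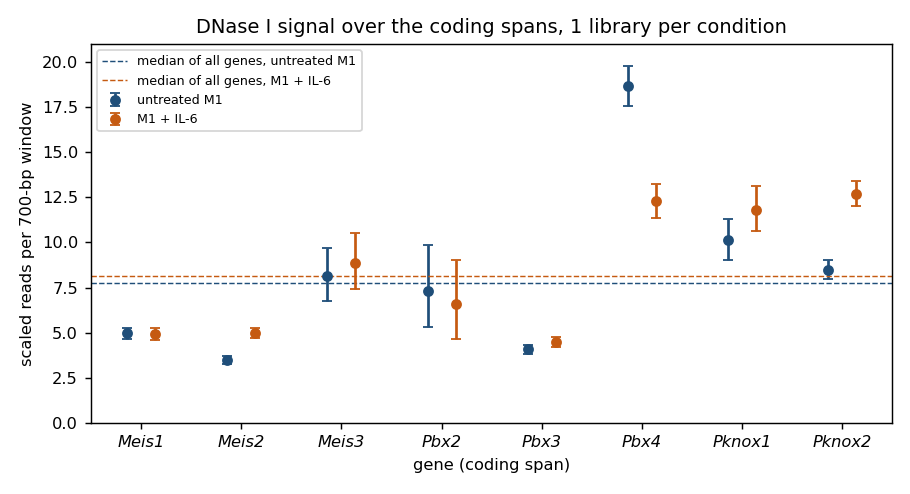
Mean signal per 700-bp window (scaled reads) over the coding span of each of the 8 genes, with 1 point for the M1 library and 1 for the M1+IL-6 library; bars are exact Poisson 95% intervals and dashed lines mark the all-gene medians (7.75 and 8.14). Pbx4 stands apart at 18.6 in untreated cells, and after IL-6 Pknox2, Pbx4 and Pknox1 lie together between 11.8 and 12.7.

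In untreated cells the order from high to low was Pbx4, Pknox1, Pknox2, Meis3, Pbx2, Meis1, Pbx3 and Meis2. Intervals of neighbors overlapped from Pknox1 down to Pbx2. They were apart at the steps from Pbx4 to Pknox1, from Pbx2 to Meis1, from Meis1 to Pbx3 and from Pbx3 to Meis2. Overlapping intervals do not show that levels are equal. After IL-6 the order was Pknox2, Pbx4, Pknox1, Meis3, Pbx2, Meis2, Meis1 and Pbx3. There the intervals of neighbors were apart only at the step from Pknox1 to Meis3. Below it, Pbx2 with its wide interval overlapped both Meis3 above and the lower genes, while Meis3 lay wholly above Meis2, Meis1 and Pbx3. Of the 8 genes, 4 were above the all-gene median in each library.

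The SD between windows shows whether the reads of a gene were spread evenly or gathered at a few places. Pbx4 had by far the most uneven signal of the 8, with an SD of 61.3 around its mean of 18.6 in untreated cells. Its variance was 202 times its mean, the 95.7 percentile of genes with more than 21 reads, against 2.05 to 8.95 times for the other 7. In IL-6-treated cells its scaled SD was 13.0. In unscaled reads its variance was 13.4 times the mean, still the 91.3 percentile. The mean and SD bound the strongest single window. In Pbx4 that window held between 243 and 473 reads in untreated cells, and between 28.0 and 105 scaled reads after IL-6. These bounds do not overlap. The other 56 windows of Pbx4 averaged between 10.5 and 14.6 reads in untreated cells and between 10.6 and 12.0 scaled reads after IL-6, ranges that do overlap. The strongest window thus differed between the libraries at Pbx4, while the bounds for the other windows give no direction. Whether the strongest window is the same one in both libraries cannot be read from the table.

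The study used more than 21 reads as its minimum for a hypersensitive site. Pbx4 was the 1 gene of the 8 with a window certainly above it in untreated cells, and again the 1 gene after IL-6. Over all genes such a window was certain in 35.0% in the M1 library and in 18.1% in the IL-6 library. Those shares used the mean and SD of the whole span only. The bounds of the 8 genes also used parts of the span set apart by other transcripts, which gives a lower bound as high or higher. In Pbx2 no window could exceed 21 in either library (13 to 14 reads, then 11.4 to 12.5 scaled reads), and in Meis3 none could after IL-6. The bounds left 6 and 5 genes undecided. For Meis1 the strongest window held 20 to 71 reads in untreated cells and 8.31 to 50.9 scaled reads after IL-6. For Pbx3 the bounds were 18 to 95 and 15.6 to 46.7, and for Pknox2 they were 12 to 63 and 17.6 to 89.3. These overlap between the libraries, so no direction can be given for the strongest window of these genes. The ratio of variance to mean, again in unscaled reads, was lower after IL-6 in 6 of the 8. Meis1 went from 5.90 to 2.32 and Pbx3 from 8.95 to 2.75. This ratio was higher in Pbx2 (2.05 and 2.19) and in Pknox2 (3.33 and 4.17). Over genes of 2 or more windows and more than 21 reads it was lower in 72.3%, with medians of 6.19 and 3.805.

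**Figure D2:**
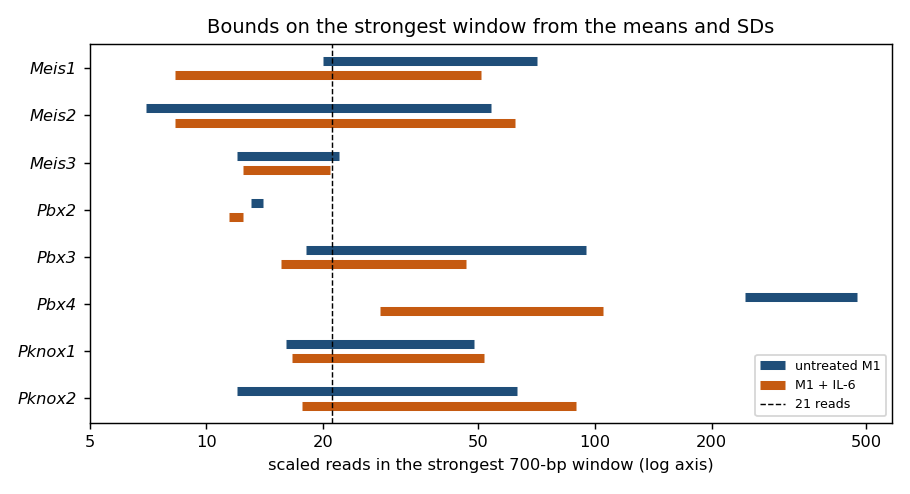
Lowest and highest possible scaled reads in the strongest 700-bp window of each gene (log axis), 1 bar for each library, worked out from the mean and the SD; the vertical line marks 21 reads. The bars for Pbx4 lie far apart (243 to 473 against 28.0 to 105), those for Pbx2 lie narrowly apart (13 to 14 against 11.4 to 12.5), and those of Meis1 (20 to 71 against 8.31 to 50.9) overlap.

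The ratio of IL-6-treated to untreated cells asks whether chromatin at these genes changed as M1 cells differentiated. Pbx4 was lower, Meis2 and Pknox2 were higher by a similar factor, and Meis1 was level. The ratio was 0.658 (0.597 to 0.726) at Pbx4, a log2 ratio of -0.60. It was 1.43 (1.32 to 1.55) at Meis2 and 1.496 (1.37 to 1.63) at Pknox2, log2 ratios of 0.52 and 0.58. Pbx3, at 1.10 (1.01 to 1.19), was the other gene whose interval lay above 1, but without the factor of 1.03816 it held 1 (0.976 to 1.15). The intervals of the remaining 4 held 1. These were Meis1 at 0.991 (0.905 to 1.09), Meis3 at 1.09 (0.843 to 1.41), Pbx2 at 0.897 (0.565 to 1.42) and Pknox1 at 1.17 (1.00 to 1.36), whose interval lay above 1 (1.03 to 1.40) when the libraries were scaled by their totals over coding spans. The widest interval was that of Pbx2, the shortest gene, whose few reads allow any ratio from 0.565 to 1.42.

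All 8 genes had more than 21 reads in either library. None was 2-fold lower and none 2-fold higher, against 13.4% and 1.71% of the 18473 genes with that many reads. The interval lay below 1 in 1 of 8, against 34.4%, and above 1 in 3 of 8, against 29.0%. The median log2 ratio of the 8 was 0.13, and over all genes it was 0.03 with quartiles of -0.52 and 0.38. Only Pbx4 was below the lower quartile, and Meis2 and Pknox2 were above the upper one. With 8 genes these shares are descriptions. The direction rests on the scaling. Under a median of ratios over strong windows every log2 ratio is higher by 1.83, which puts all 8 genes above 1, Pbx4 included at 1.22 on the log2 scale. The all-gene median is then 1.85. The differences between genes and between stretches of 1 gene do not depend on the scaling.

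**Figure D3:**
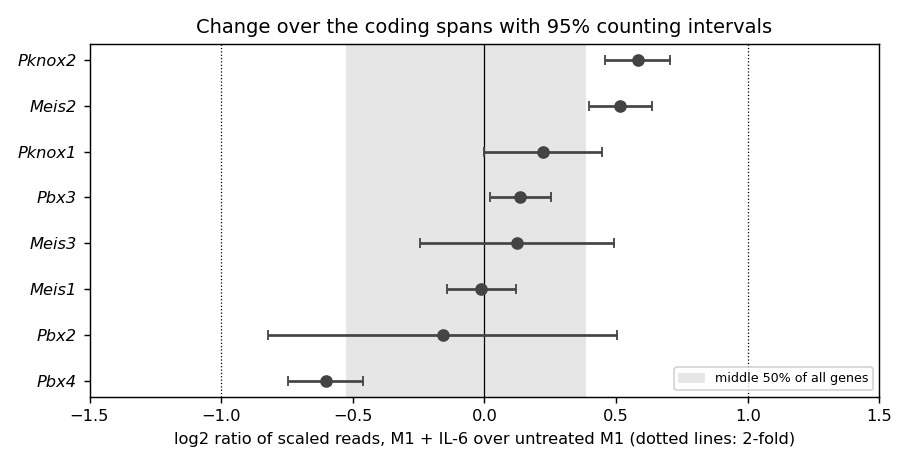
Log2 ratio of scaled reads, M1+IL-6 over M1, for each of the 8 genes; bars are 95% Clopper-Pearson intervals, dotted lines mark 2-fold and the gray band spans the quartiles of all genes (-0.52 to 0.38). Pbx4 lies lowest at -0.60 and Pknox2 highest at 0.58, and no gene reaches 2-fold.

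Transcripts of 1 gene that begin or end at different codons split its windows into stretches, which places the reads along the gene. For 5 of the 8 genes this set apart a stretch at the start codon. Pbx3 could be split, but not there alone, and Pknox1 and Pknox2 have a single listed span. The start-codon end was above the other windows in 5 of 5 in untreated cells and in 3 of 5 after IL-6. The same held for 61.2% and 52.3% of the 7506 genes that could be split in this way. The ratio of that end to the other windows was lower after IL-6 in 4 of 5, all but Meis3, against 66.4% of those genes, whose medians were 1.20 and 1.02. These tallies take no account of counting error. Meis2 enters them through 1 window of 5 and then 2 reads. In Meis3 and Pbx2 the ratio intervals of the end and of the other windows overlap.

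Meis1 was the clearest case, because its level over the whole span hid a difference at its start. The 10 windows at chr11:18911901-18918900 held 103 reads in untreated cells and 51 after IL-6, means of 10.3 and 5.29 scaled reads per window. The ratio was 0.514 (0.360 to 0.726), a log2 ratio of -0.95. The other 187 windows held 874 and 882 reads, 4.67 and 4.90 per window, with a ratio of 1.05 (0.953 to 1.15). The intervals of these ratios do not overlap. The end thus stood 2.20 times above the remainder of Meis1 in untreated cells and 1.08 times after IL-6. Its strongest window held 20 to 39 reads at first and at most 15.6 scaled reads afterwards. Gm16141 lies within these windows, and the promoter printed above begins just outside them.

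Pbx4 differed in the same direction. Its start-codon end is long, 47 of its 57 windows, at chr8:72356201-72389100, which contain the printed promoter. They held 941 and 549 reads, 20.02 and 12.1 per window, with SDs of 67.5 and 13.9 and a ratio of 0.606 (0.544 to 0.674). The other 10 windows held 122 and 125 reads, 12.2 and 13.0 per window, with a ratio of 1.06 (0.822 to 1.38). These intervals do not overlap either. As the 10 windows held 122 reads in all in untreated cells, the window with at least 243 lay among the 47. That window held 243 to 473 of their 941 reads. Whether the end would still be lower without it cannot be read from the table. Nor can it be read whether that window is the one of the promoter. The last 2 windows, chr8:72394701-72396100, held 19 and 17 reads in untreated cells and 25 and 24 after IL-6.

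In Pbx3 the windows that could be set apart are in 2 pieces, the first 2 of the gene at chr2:34226501-34227900 and 15 far inside it at chr2:34069001-34079500, and their reads cannot be separated. Together they held 110 and 79 reads, 6.47 and 4.82 per window, a ratio of 0.746 (0.551 to 1.00). The other 268 windows held 1050 and 1149 reads, with a ratio of 1.14 (1.04 to 1.24), which does not overlap. The rest of Pbx3 was itself uneven. The 53 windows toward its stop codon at chr2:34031201-34068300 held 186 and 295 reads, a ratio of 1.65 (1.37 to 1.99). The 210 windows of chr2:34079501-34226500 held 837 and 814, a ratio of 1.01 (0.916 to 1.11). The higher signal of Pbx3 after IL-6 was thus found toward its stop codon and not over its longest stretch.

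The other 3 genes gave no separation. How often the ratio intervals of such stretches lie apart among the 7506 split genes was not counted. Separation is thus not shown to be particular to Meis1, Pbx4 and Pbx3. In Pbx2 the 2 windows at the start codon held 14 and 10 reads in untreated cells and 12 and 3 after IL-6, a ratio of 0.649 (0.317 to 1.29). Its other 4 windows held 20 and 23 reads, a ratio of 1.19 (0.627 to 2.29). In Meis3 the 6 windows of the start-codon end and the other 9 had the same ratio of 1.09, with intervals of 0.7496 to 1.59 and 0.760 to 1.56. At Meis2 the single window at the start codon, which holds most of the printed promoter, had 5 reads in untreated cells and 2 after IL-6, and the window beside it had 0 and 4. Their ratio intervals, 0.0395 to 2.54 and from 0.685 without an upper limit, both held 1, so neither window shows a difference. The outermost start of Meis2 lies 975 bp outside the windows and was not counted. The higher signal of Meis2 lay over its body, where the longest stretch of 248 windows held 892 and 1227 reads, a ratio of 1.43 (1.31 to 1.56). The 3 windows of chr2:115692501-115694600 near its stop codon held 3, 3 and 1 reads in untreated cells and 8, 6 and 4 after IL-6, a ratio of 2.67 (1.06 to 7.56).

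**Figure D4:**
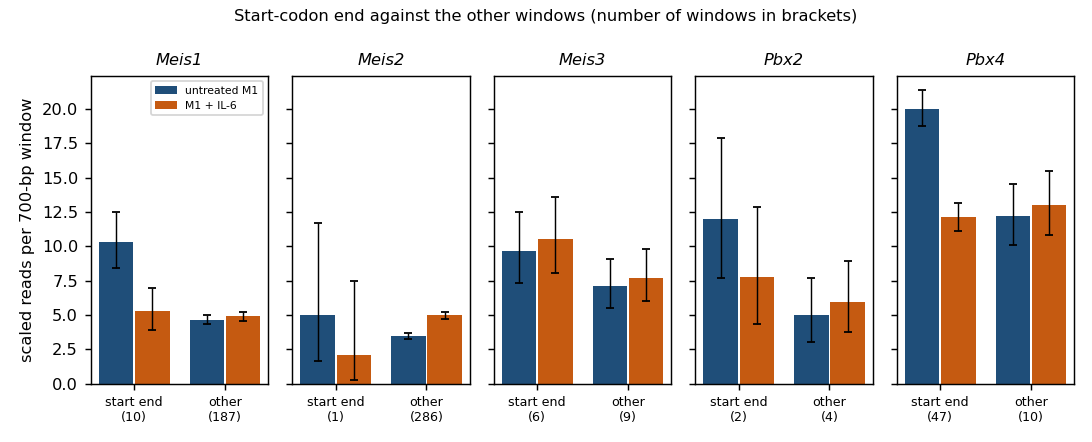
Mean scaled reads per 700-bp window at the start-codon end and over the other windows of the 5 genes whose start-codon end could be set apart, 1 bar for each library and 1 panel for each gene; error bars are exact Poisson 95% intervals and brackets give the number of windows. The untreated end is the tallest bar in all panels but that of Meis3, narrowly so in Meis2 (5 against 4.97). In Meis1 it is 10.3, against 4.67 in the other windows, and in Pbx4 20.02, against 12.2. After IL-6 the end and the other windows of Meis1 and Pbx4 lie close (5.29 and 4.90, 12.1 and 13.0).

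Base composition moved with signal in both libraries. Across 18473 genes, Spearman's rho between GC content and mean signal was 0.66 in untreated and 0.77 in IL-6-treated cells, and between GC content and the log2 ratio it was -0.21. These are correlations across genes, which share their library and are not replicates. Over the 8 genes rho was 0.55 in each library. The lowest levels were found in the AT-rich long genes Pbx3 (38.4% GC), Meis1 (41.3%) and Meis2 (41.5%). Pknox2 had 46.5%, Pknox1 48.0%, Pbx4 49.0% and Meis3 51.6%, around the all-gene median of 45.6% and above. Pbx2 had the most, 59.6%, the 97.8 percentile of all genes, and yet a level near the middle of the 8. The part of GC content in the order of the levels was not tested.

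**Figure D5:**
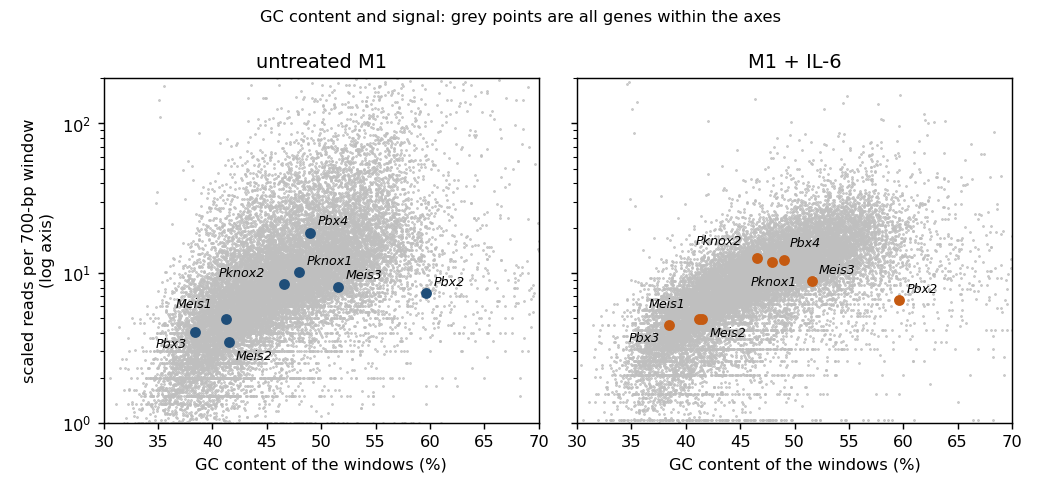
Mean scaled reads per 700-bp window (log axis) against GC content of the windows in percent, 1 panel for each library, with all genes in gray and the 8 genes named. Pbx3, Meis1 and Meis2 lie at the lower left, and Pbx2 lies far to the right at 59.6% GC with 7.33 and 6.58 reads per window.

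The genes nearest to Meis1 in level were sought among 1356 genes of like length, by distance between log2 levels in the 2 libraries. They were Ate1 (an arginyltransferase) with 4.90 and 4.89 reads per window, Mkln1 (muskelin) with 4.87 and 4.91, and Atr (a DNA damage kinase) with 5.04 and 4.76. Their SDs between windows were 12.7, 5.52 and 9.49 in untreated cells, against 5.41 for Meis1. Mkln1 thus had an SD close to that of Meis1, and the SDs of Ate1 and Atr were larger.

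Genes that work with these factors were read in the same way, and their counts are descriptions beside the 48.3% of tested genes that were lower after IL-6 and the 13.4% that were at least 2-fold lower. Of the 9 other TALE genes 2 were lower and 7 higher, with a median log2 ratio of 0.36. Tgif1, a repressor of TGF-beta targets, was lowest with 240 and 97 reads (log2 ratio -1.25), and Irx4, of heart ventricle, highest with 28 and 45 (0.73). Tgif1 was the only one of the 9 that was 2-fold lower. Of 11 HoxA genes, which supply the partners on DNA, 7 had more than 21 reads. In these 7, 4 were lower and 3 higher, 3 of them 2-fold lower, and the median was -0.48. Hoxa11, which acts in limb and kidney development, was highest with 19 and 35 reads (0.92). Hoxa9, named here because the study examined it, held 132 and 54 reads (-1.23) over 4 windows. So Hoxa9 was 2-fold lower where the whole span of its partner Meis1, over 197 windows, was level. The ratio of Hoxa9, 0.425 (0.304 to 0.587), overlapped that of the start-codon end of Meis1, 0.514 (0.360 to 0.726). The contrast thus holds for the whole span of Meis1 only.

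Of 10 genes known as targets of Meis1 and Hoxa9, 7 were lower and 3 higher, 2 of the 10 were 2-fold lower, and the median log2 ratio was -0.41. The chemokine gene Ccl3 was lowest with 153 and 45 reads (-1.70), and Erg, a factor of blood stem cells, was highest with 1572 and 2170 (0.52). Of 6 genes for cofactors of Pbx and Meis, 3 were lower and 3 higher, with a median of -0.07. Crtc2, a coactivator of CREB, was lowest with 735 and 327 reads (-1.11), and the corepressor Ncor1 highest with 653 and 710 (0.17). The progenitor markers had a median log2 ratio of -0.69 and the macrophage markers one of -0.38, while it was between 0.26 and 0.40 for the T-cell, B-cell, erythroid and mesenchymal markers. With the median of ratios all of these medians are above 0.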

How the data were processed

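The authors performed DHS-seq on M1 cells with and without IL-6, 1 library each. Reads were trimmed and aligned to NCBIM37 (mm9) with BWA, and Seqmonk was used to summarize them. The deposited values are signal, the mean and SD of reads in 700-bp windows, tiled from each chromosome start, for all windows under the coding span of a transcript. Totals for all reads were not used here, and an aligner version is not given in the sources used here.

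Reads on a span were recovered as the mean times the number of windows over what 1 read is worth (1.0 and 1.03816), and 100% of rows were whole within 0.05. The SD gave the sum of squares, and from it the bounds on the strongest window. Differences between transcripts of 1 gene gave stretches. The log2 ratio adds 0.5 reads. Ratios over all genes use the 18473 with more than 21 reads in either library. Sequences and gene models came from NCBIM37, GENCODE M1 and RefSeq. The recovery was tested on simulated windows.

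The genes and lists were chosen with earlier results of these data known. Named were the 8 genes, the 3 nearest to Meis1 and the lowest and highest of each list, of which 1 is not reported here. Hoxa9 was added for the study's interest in it. Gfi1 and promoters of Pbx3, Pknox1 and Pknox2 were not analysed here. Alternatives covered the scaling, reads added, fold, read minimum and choice of transcript. No test across libraries was made, since each group has 1. Computations ran in Python 3.11.15 (numpy 2.4.6, scipy 1.17.1, pandas 2.3.3, matplotlib 3.10.9).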

Additional observations from a re-analysis of the deposited data

How the results depend on the processing

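No paired analysis was possible because each group is a single library and no result comes from a test. Without scaling, with the total over coding spans or with 5 reads added, all log2 ratios moved by less than their counting interval. The number of genes whose interval lay above 1 was 3 with the deposited scaling, 2 without scaling (Pbx3 lost) and 4 with the total (Pknox1 gained), and Pbx4 stayed below 1 in each. Scaling by the median of ratios or by the trimmed mean, taken over 544 strong windows, raised every log2 ratio by 1.83 and 1.68, respectively. These gave 1.81 and 1.67 for Meis1, 2.34 and 2.20 for Meis2, 1.95 and 1.81 for Meis3, 2.05 and 1.91 for Pknox1, 2.41 and 2.27 for Pknox2, 1.67 and 1.53 for Pbx2, and 1.96 and 1.82 for Pbx3. Pbx4 turned from -0.60 to 1.22 and 1.08. The start-codon end turned to 0.87 and 0.73 in Meis1 and to 1.10 and 0.96 in Pbx4, and was 1.22 and 1.08 in Pbx2. The 17 windows of Pbx3 gave 1.41 and 1.26. The other windows gave 1.89 and 1.75 (Meis1), 2.08 and 1.94 (Pbx2), 2.01 and 1.87 (Pbx3), and 1.92 and 1.77 (Pbx4). The median of the 8 genes was then 1.96 and 1.81, with 0 genes lower and 8 at least 2-fold higher under both. Over all genes the median log2 ratio was 1.85 under the median of ratios, so that count is not particular to these 8. Medians of the lists under the median of ratios were 2.19 (other TALE), 1.34 (HoxA), 1.42 (targets) and 1.76 (cofactors). The shift follows from how these scalings are built. With the transcript of fewest windows, the log2 ratio was 1.36 for Meis2, 0.52 for Pbx2 and 0.71 for Pbx3, the median 0.37, and 1 gene was lower in place of 3. These spans are other stretches of the genes. With a fold of 1.5 in place of 2, 1 gene (Pbx4, at a ratio of 0.658) was lower and 0 were higher. Pknox2 fell just short at 1.496. The share of all genes past this fold was not computed. Pbx2, with 44 and 38 reads, and the single windows of Meis2 are limited by depth. The table gives no positions within a stretch, so a strong window cannot be placed on a promoter.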
